A study of Mus musculus with 12 samples.

Results

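The proteases of the lysosome and their inhibitor cystatin C were compared between plasmacytoid dendritic cells (pDCs) and 3 precursor populations of mouse bone marrow, in 9 of the 21754 genes counted. The genes were listed by name, with earlier results of these data known, and no threshold on their values was used: the cysteine cathepsins Ctsl, Ctsb, Ctss, Ctsh, Ctsz and Ctsc, the aspartic cathepsin Ctsd, legumain (Lgmn) and cystatin C (Cst3). All 9 passed the filter (a mean count over the 12 libraries of at least 1) and were among the 15293 genes tested. Each of 4 sorted populations gave 3 bulk libraries by SCRB-seq, a protocol that mostly reads the 3′ ends of transcripts. The study used adult mice of both sexes, without giving the sex of those behind these libraries. All 4 populations came from adult C57BL/6 mice (an inbred strain), after depletion of marrow cells bearing T cell, B cell, NK cell, neutrophil and red cell surface proteins. They were pre-cDCs, which give rise to conventional dendritic cells (cDCs) and lack Siglec-H, lo-lo cells (Siglec-H+ CCR9lo B220lo), lo-hi cells (Siglec-H+ CCR9lo B220hi) and pDCs (CCR9hi B220hi). The paper places lo-lo and lo-hi cells, but not pre-cDCs, on the path to pDCs. A comparison with pre-cDC, such as the first step below, is therefore no stage of pDC development. In the paper, lo-lo cells sorted by this gate were mixed and gave more cDCs than pDCs in culture. It proposes that they still contain Siglec-H+ pre-cDCs. The part of such cells in the differences from lo-lo below was not tested. The words step, end to end, rise and fall name differences between populations in the order given here. The study describes 3 individual mice for these populations and also pooling of marrow from several mice for sorting, so the replicates may not each be 1 animal.

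The labels of the deposited samples do not hold for all libraries. The paper lists levels of some transcription factors in named samples, and the rank order of these genes was compared with that in each well. Over 378 pairs of 28 genes, each named sample was matched by exactly 1 well with 0 pairs in another order, and the next best well differed in at least 7 pairs. By this match the population differs from the label in 8 of the 12 wells and is the labelled one in 4 (A1, A6, A7 and A12). The populations below follow the match, as do the replicate numbers, and none of the 9 genes was among the 28. With the deposited labels, 0 of all 15293 genes tested passed in any comparison by edgeR's quasi-likelihood test, so that the 0 of the 9 that passed (also 0 at an unadjusted p under 0.05) is no result about these genes. The values below rest on the match, and the main results are also given for the 4 wells where match and label agree.

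The sum of the pDC markers followed the matched names, and the cDC and pre-cDC markers did so only in part. Of the latter, Zbtb46 is among the 28 genes of the match. The summed level of 6 pDC markers (Siglech, Bst2, Ccr9, Ly6d, Klra17 and Cd8a), as CPM (counts relative to the total, after TMM scaling in edgeR), was 1055 to 1543 in the pre-cDC libraries, 3600.4 to 3932 in lo-lo, 6064 to 6527 in lo-hi and 7034 to 7570.0 in pDC. The summed level of 6 cDC and pre-cDC markers (Csf1r, Cx3cr1, Zbtb46, Flt3, Itgax and Cd209a) was 652 to 1005 CPM in pre-cDC, 441 to 548 in lo-lo, 384 to 438 in lo-hi and 380.1 to 441 in pDC. It did not separate lo-hi from pDC. The means of Csf1r, Cx3cr1 and Zbtb46 were lower in each next population. Cd209a, the largest part of the sum in pre-cDC (mean 422 CPM), had 103 in lo-lo and 237 in pDC, and Flt3 and Itgax were highest in lo-lo. RNA of other blood cells was present in all libraries: 8 neutrophil markers summed to 4405 to 11423 CPM in pre-cDC, 5300.3 to 17650.2 in lo-lo, 9846 to 20587 in lo-hi and 3236 to 6584 in pDC, with 0 of the 8 called by edgeR between any 2 populations (at an unadjusted p under 0.05, 6 of 8 between lo-hi and pDC and at most 1 in the other pairs), and 5 red cell markers to between 4677 and 18415 CPM. The 10 monocyte and macrophage markers summed to 4414 to 4732 CPM in pre-cDC, 2763 to 3579 in lo-lo, 3499 to 4431 in lo-hi and 3068 to 4037 in pDC. The largest part was Ly6c2, with means of 2201, 1956, 2471 and 2735 CPM in the same order. The paper found more Ly6C protein with higher B220 among CCR9lo precursors, so this sum cannot be read as monocyte RNA. In pDC the means of Fcgr1, Adgre1 and Cd14 were 0.477, 0.582 and 2.07 CPM. Of the 10, 2 were lower in lo-lo than in pre-cDC (log2 fold change of Ccr2 -1.42 and of Fcgr1 -2.81), against 1.55% of all genes, and 5 in pDC than in pre-cDC (Ccr2, Lyz2, Fcgr1, Adgre1 and Cd14), against 10.4%. No defining marker of these 3 lists was at 0 in a whole population. Their part in the results below was not tested. In bulk RNA, fewer cells of a type and less RNA per cell cannot be told apart.

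Lysosomal proteases are made as inactive precursors, delivered to the acidic endosome and lysosome and matured there by cleavage. Together they digest endocytosed proteins, trim the invariant chain so that MHC class II can load peptides, and cleave endosomal Toll-like receptors into their signalling form. Cystatin C, a small secreted protein, blocks the active site of the papain-like cysteine cathepsins, which include all the cathepsins followed here apart from Ctsd.

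The promoter windows of Ctsl and Cst3 are shown because these genes had the largest changes in opposite directions among the 9, and that of Ctsd because it alone held the palindrome TCACGTGA, the core of the CLEAR element bound by TFEB and its relatives. RefSeq windows of 300 bases on GRCm38.p6, from 250 bases before to 50 after the start, were found for 7 of the 9 genes (8 windows, 2 of them for Lgmn), and none for Ctsb and Ctsh. The 3 shown lie on the minus strand and read 5′ to 3′: Ctsl at chr13:64370471-64370770, Cst3 at chr2:148875463-148875762 and Ctsd at chr7:142387778-142388077. Start means the RefSeq start used for the window. In the GENCODE models the Ctsl gene begins at base 64370890, so its whole window lies within the gene and may not be promoter. The GENCODE 5′ ends of Cst3 (148875692) and Ctsd (142388038) lie inside their windows. Capitals mark matches to TCACGTGA, to the E-box core CACGTG that it contains, or to GAGGAA, the core bound by PU.1 (TTCCTC on the other strand).
Ctsl: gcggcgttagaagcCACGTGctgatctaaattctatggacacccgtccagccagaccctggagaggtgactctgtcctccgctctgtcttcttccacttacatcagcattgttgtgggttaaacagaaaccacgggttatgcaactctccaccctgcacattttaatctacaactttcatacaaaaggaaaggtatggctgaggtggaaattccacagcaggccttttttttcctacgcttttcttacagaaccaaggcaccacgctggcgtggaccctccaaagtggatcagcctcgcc
Cst3: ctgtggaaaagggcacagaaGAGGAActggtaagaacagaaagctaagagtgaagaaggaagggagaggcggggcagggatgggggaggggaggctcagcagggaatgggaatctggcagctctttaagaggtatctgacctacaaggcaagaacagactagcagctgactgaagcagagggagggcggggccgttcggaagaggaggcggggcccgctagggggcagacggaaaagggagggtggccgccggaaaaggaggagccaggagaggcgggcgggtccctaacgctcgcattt
Ctsd: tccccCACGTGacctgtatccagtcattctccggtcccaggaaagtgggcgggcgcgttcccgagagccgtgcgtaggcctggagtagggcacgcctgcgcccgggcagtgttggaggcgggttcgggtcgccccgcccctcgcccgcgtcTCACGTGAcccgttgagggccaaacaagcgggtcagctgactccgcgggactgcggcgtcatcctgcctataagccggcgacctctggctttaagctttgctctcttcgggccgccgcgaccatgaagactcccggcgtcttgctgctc
TCACGTGA started 99 bases before the Ctsd start and is held by 0.974% of 32851 promoters. CACGTG stood in the windows of Ctsd (2 matches, 1 of them inside TCACGTGA), Ctsl (236 bases before the start used, within the gene) and Lgmn, and in 7.15% of promoters. GAGGAA in either strand stood in the windows of Ctss, Ctsc and Cst3 (230 bases before the start), and in 28.3% of promoters. These are matches of letters only.

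Of the 9 genes, Ctsl and Ctsb were higher in pDC than in pre-cDC by the most. Ctsh, Ctss, Ctsd and Ctsc passed in fewer comparisons and by less, Cst3 was lower, and Ctsz and Lgmn passed in none. Between the 4 populations 5 of the 9 passed (Ctsl, Ctsb, Ctsh, Ctss and Cst3), where 19.9% of all genes tested did (adjusted p under 0.01 in edgeR's quasi-likelihood F-test, corrected over all 15293 genes by Benjamini-Hochberg). Ctsd (adjusted p = 0.0146), Ctsc (adjusted p = 0.0167), Lgmn (adjusted p = 0.143) and Ctsz (adjusted p = 0.159) did not pass. Counts of the 9 genes per library ran from 52 (Lgmn) to 23058 (Ctsb), well above the floor of 3 counts.

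**Figure D1:**
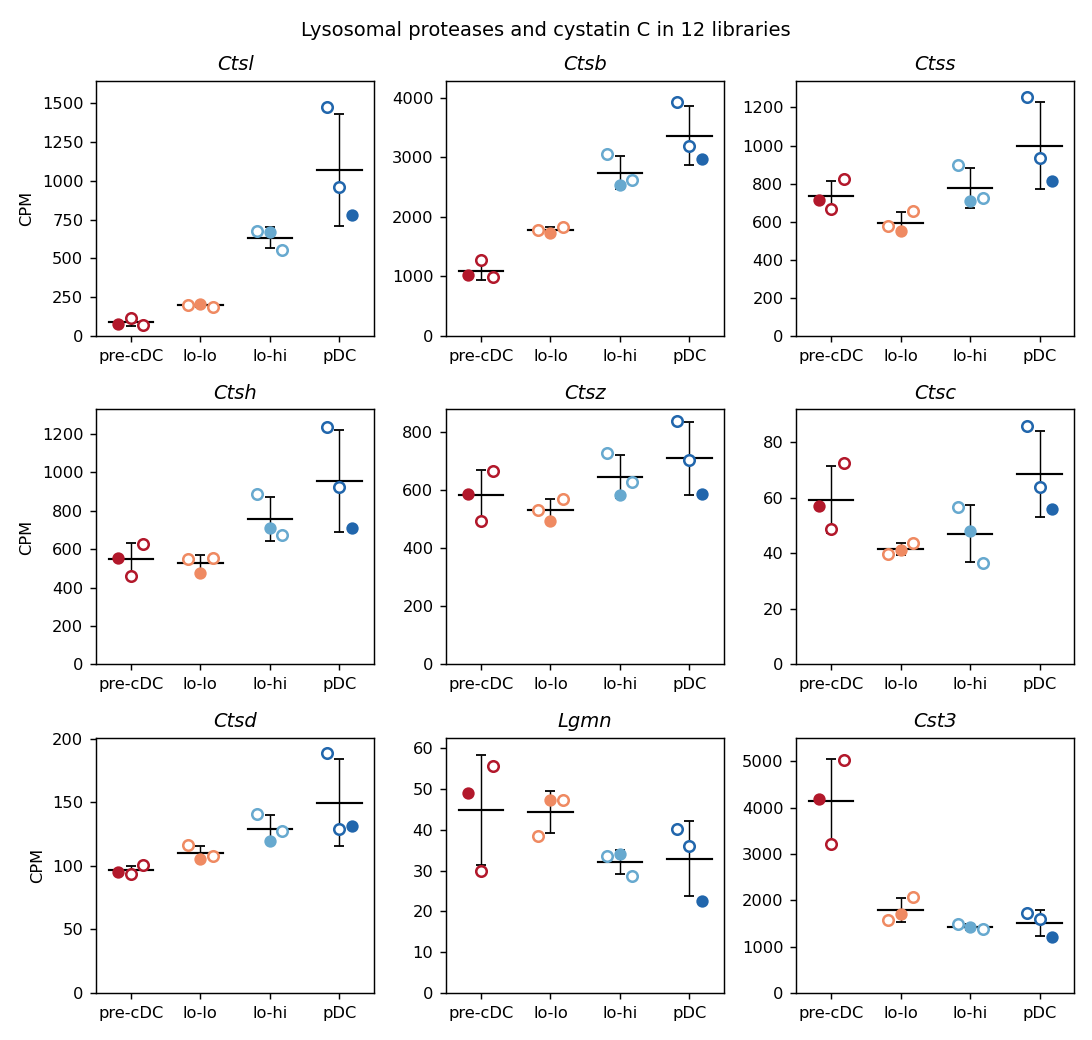
CPM (TMM-scaled, linear axes from 0) of each gene in the 3 libraries of each population, with the mean as a bar and the SD as a whisker; replicates run 1 to 3 from left to right, and filled points are the 4 wells whose deposited label agrees. Ctsl climbed from between 69.6 and 116 in pre-cDC to between 778 and 1475 in pDC, and Cst3 was at 3210.0 CPM or more in the pre-cDC libraries and at 2073 or less in the other populations.

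Ctsl (ENSMUSG00000021477, chr13:64359337-64370890 on GRCm38, minus strand) encodes cathepsin L, an endopeptidase that cuts the invariant chain in thymic epithelium. Its level was 76.1, 116 and 69.6 CPM in pre-cDC replicates 1 to 3 and 201, 208 and 185 in lo-lo. It was 676, 669 and 554 CPM in lo-hi and 1475, 962 and 778 in pDC. No 2 populations overlapped, and the order was the same in the means, from 87.2 ± 25.1 in pre-cDC through 198 ± 11.7 and 633 ± 68.8 to 1071 ± 361 in pDC (SD, n = 3 each). The log2 fold change was 1.19 (standard error 0.21) for lo-lo over pre-cDC (adjusted p = 0.00113), 1.68 (SE 0.21) for lo-hi over lo-lo (adjusted p = 2.16e-05) and 0.76 (SE 0.20) for pDC over lo-hi (adjusted p = 0.0565, edgeR). The first 2 steps passed and the last did not, although all pDC libraries stood above all lo-hi libraries. With the replicate number as a block the last step also passed (0.74, adjusted p = 0.00291, edgeR). From end to end Ctsl rose by 3.63 (SE 0.23) on the log2 scale, 12.4-fold (adjusted p = 1.19e-10, edgeR), and by 3.35 in the 4 agreeing wells. The first step was lost without pre-cDC replicate 1 (1.10, adjusted p = 0.0116) or replicate 3 (1.05, adjusted p = 0.0156), and pDC replicate 1 carried much of the last: without it that step was 0.45, and without pDC replicate 3 it was 0.94 and passed (adjusted p = 0.00789, edgeR). In the 4 wells the last step was 0.22.

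Ctsb (ENSMUSG00000021939, chr14:63122462-63145923, plus strand) encodes cathepsin B, which cuts inside proteins and also removes dipeptides from their C-termini. It had 1033, 1273 and 990.1 CPM in pre-cDC, 1787, 1739 and 1825 in lo-lo, 3065, 2543 and 2627 in lo-hi and 3927, 3192 and 2981 in pDC. Only lo-hi and pDC overlapped. Ctsb rose by 0.70 (SE 0.14) on the log2 scale at the first step (adjusted p = 0.00222) and by 0.62 (SE 0.14) at the second (adjusted p = 0.00427), and the last gave 0.29 (SE 0.14, adjusted p = 0.43, edgeR). The end-to-end rise was 1.62 (SE 0.14, adjusted p = 2.24e-09, edgeR), or 3.07-fold, and 1.53 in the 4 wells. Both single steps sat near the threshold: the second was lost in 7 and the first in 4 of the 12 fits that left out 1 library, at values of 0.51 to 0.67 and 0.63 to 0.79. The second was lost without any lo-lo or lo-hi library or pDC replicate 2, and the first without replicate 1 or 3 of pre-cDC or of lo-lo. The first was also lost in a fit of only those 6 libraries (0.67, adjusted p = 0.0246, edgeR).

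Ctss (ENSMUSG00000038642, chr3:95526786-95556403, plus strand) encodes cathepsin S, the endopeptidase that removes the invariant chain in B cells and dendritic cells. It had 712, 665 and 825 CPM in pre-cDC, 576, 551 and 657 in lo-lo, 897, 707 and 725 in lo-hi and 1253, 934 and 813 in pDC. The lowest population was lo-lo, below every library of the other 3, while pre-cDC, lo-hi and pDC overlapped. Ctss rose from lo-lo to pDC by 0.75 (SE 0.16, adjusted p = 0.000936, edgeR), 0.56 in the 4 wells, a call lost without lo-lo replicate 1 (0.69) or pDC replicate 1 (0.51). From pre-cDC to pDC the log2 fold change was 0.45 (SE 0.16, adjusted p = 0.0331, edgeR) and did not pass, but passed at 0.58 without pDC replicate 3.

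Ctsd (ENSMUSG00000007891, chr7:142375911-142388038, minus strand) encodes cathepsin D, the main aspartic protease of lysosomes. It had 95.4, 93.7 and 100.3 CPM in pre-cDC, 116, 105 and 108 in lo-lo, 141, 119.5 and 127 in lo-hi and 189, 129 and 131 in pDC. Each population stood above the one before it apart from pDC and lo-hi, which overlapped, but the steps were small. Only the end-to-end comparison passed, at 0.64 (SE 0.16, adjusted p = 0.00311, edgeR), and it rested on single libraries: it was lost without pDC replicate 1 (0.39, adjusted p = 0.06), pre-cDC replicate 1 (0.63, adjusted p = 0.0186) or pre-cDC replicate 3 (0.63, adjusted p = 0.0102, edgeR). It was also lost in a fit of only the 6 libraries compared (0.61, adjusted p = 0.0297, edgeR), and in the 4 wells it was 0.46.

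Ctsh (ENSMUSG00000032359, chr9:90054152-90076089, plus strand) encodes cathepsin H, chiefly an aminopeptidase. It had 552, 460.1 and 628 CPM in pre-cDC, 549, 476 and 556 in lo-lo, 885, 711 and 671 in lo-hi and 1233, 924 and 708 in pDC. Pre-cDC and lo-lo overlapped, as did lo-hi and pDC, and every lo-hi and pDC library stood above every pre-cDC and lo-lo library. Ctsh rose from pre-cDC to pDC by 0.80 (SE 0.17, adjusted p = 0.000756) and from lo-lo to pDC by 0.86 (SE 0.17, adjusted p = 0.00059, edgeR), while lo-hi over lo-lo (0.52, SE 0.17, adjusted p = 0.064, edgeR) did not pass, but passed in a fit of only those 6 libraries (0.51, adjusted p = 0.0018, edgeR). Both calls were lost without pDC replicate 1 (0.54, adjusted p = 0.0156, and 0.59, adjusted p = 0.0132, edgeR), and in the 4 wells the values were 0.36 and 0.57.

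Ctsz (ENSMUSG00000016256, chr2:174427493-174439039, minus strand) and Ctsc (ENSMUSG00000030560, chr7:88278085-88310888, plus strand) encode the carboxypeptidase cathepsin X and the dipeptidyl peptidase cathepsin C, which activates the serine proteases of granules. Ctsz had 585, 495 and 667 CPM in pre-cDC, 531, 493 and 568 in lo-lo, 727, 583 and 626 in lo-hi and 836, 702 and 588 in pDC. It passed in none of the comparisons (pDC over pre-cDC 0.28, SE 0.15, adjusted p = 0.171, edgeR). In the 4 wells the value for pDC over pre-cDC was 0.01. Ctsc had 57.1, 48.6 and 72.3 CPM in pre-cDC, 39.6, 41.3 and 43.8 in lo-lo, 56.8, 48.1 and 36.4 in lo-hi and 85.8, 63.8 and 56.0 in pDC. Its lo-lo libraries were below all pre-cDC and pDC libraries, and Ctsc rose from lo-lo to pDC by 0.73 (SE 0.19, adjusted p = 0.00598, edgeR), a call lost in 8 of the 12 fits that left out 1 library, namely without any lo-lo library, replicate 1 or 2 of lo-hi or pDC, or pre-cDC replicate 1, and down to 0.49 without pDC replicate 1. In the 4 wells it was 0.44. From pre-cDC to pDC the value was 0.22 (SE 0.19, adjusted p = 0.423, edgeR), and without pDC replicate 1 it was -0.03.

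Lgmn (ENSMUSG00000021190, chr12:102394084-102439813, minus strand) encodes legumain, which cuts after asparagine and processes several cathepsins to their final chains. It had 48.9, 29.8 and 55.7 CPM in pre-cDC, 38.4, 47.4 and 47.3 in lo-lo, 33.6, 34.1 and 28.7 in lo-hi and 40.2, 36.0 and 22.6 in pDC. Its populations overlapped apart from lo-hi and lo-lo, and it passed in none of the comparisons (pDC over pre-cDC -0.43, SE 0.21, adjusted p = 0.126, edgeR). Without pre-cDC replicate 2, lo-hi over pre-cDC moved from -0.49 to -0.72 and passed (adjusted p = 0.00918, edgeR).

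Cst3 (ENSMUSG00000027447, chr2:148871722-148875692, minus strand), the inhibitor, went the other way and did so at the first step. It had 4182, 3210.0 and 5025 CPM in pre-cDC, 1569, 1705 and 2073 in lo-lo, 1492, 1421 and 1373 in lo-hi and 1729, 1595 and 1207 in pDC. All pre-cDC libraries stood above all others, and pDC overlapped both lo-lo and lo-hi. Cst3 fell by 1.22 (SE 0.16) on the log2 scale from pre-cDC to lo-lo (adjusted p = 2.32e-05, edgeR), to 0.431 of its level. The second step (-0.32, SE 0.16, adjusted p = 0.288) and the last (0.08, SE 0.16, adjusted p = 0.939, edgeR) did not pass, and from end to end Cst3 fell by 1.45 (SE 0.16, adjusted p = 1.21e-07, edgeR). In the 4 wells the first step was -1.29 and the end-to-end value -1.79, and leaving out any 1 library kept both calls. Of the 10 monocyte and macrophage markers, Ccr2 and Fcgr1 were called lower at this step and 0 higher. The means of C1qa (3.16 to 4.69 CPM) and C1qb (2.22 to 4.53 CPM) went up, at low counts. The sum of the 10 was lower, at 2763 to 3579 CPM in lo-lo against 4414 to 4732 in pre-cDC. Its largest part is Ly6c2, so it cannot be read as monocyte RNA. The part of these markers in the fall of Cst3 was not tested.

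**Figure D2:**
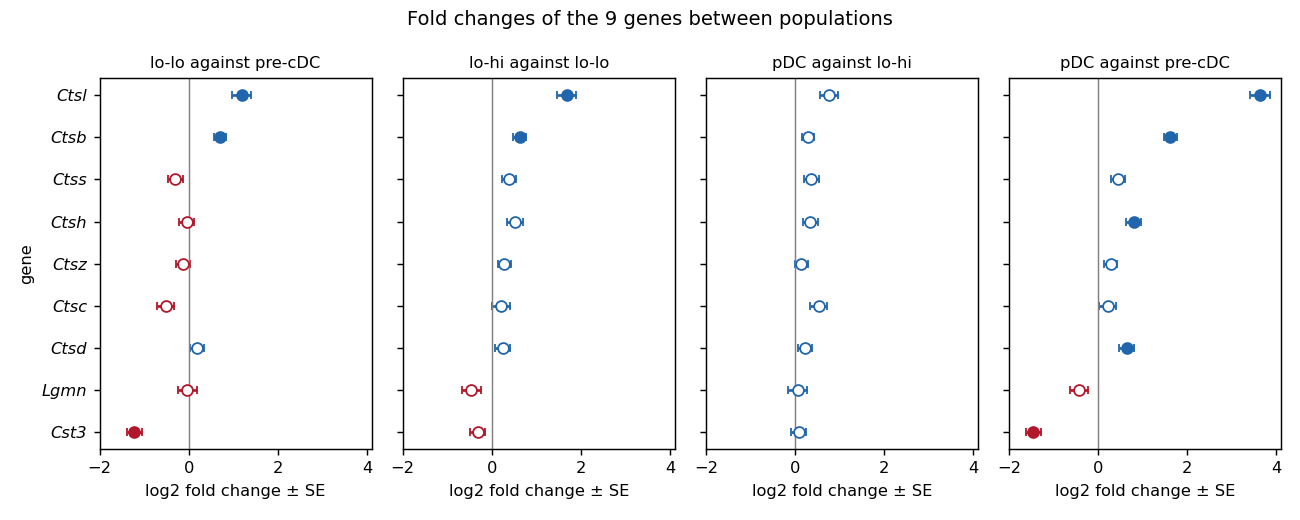
Log2 fold change with its standard error for each gene at each of the 3 steps and from pre-cDC to pDC; filled points passed (adjusted p under 0.01, edgeR), blue is higher and red lower. Ctsl and Ctsb are filled at the first 2 steps, Cst3 at the first, and 0 of 9 at the last.

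Counted by step, from pre-cDC to lo-lo 2 genes were higher (Ctsl and Ctsb) and 1 lower (Cst3), where 1.61% of all genes were higher and 1.55% lower. From lo-lo to lo-hi 2 were higher (Ctsl and Ctsb) and 0 lower, against 2.33% and 2.83% of all genes. From lo-hi to pDC 0 of the 9 passed by edgeR's quasi-likelihood test, where 0.118% of all genes were higher and 0.844% lower. At this step 4 of the 9 (Ctsl, Ctsb, Ctss and Ctsc) had an unadjusted p under 0.05, DESeq2 also called 0, and all 9 log2 fold changes were above 0, from 0.06 to 0.76, with a median of 0.29 beside 0.03 over all genes. In the 4 agreeing wells 6 of the 9 were above 0 and 3 below (Lgmn -0.60, Cst3 -0.24 and Ctsh -0.01), with a median of 0.13. With the replicate number as a block, 1 of the 9 passed (Ctsl). In this step the summed neutrophil markers moved the other way, from 9846 to 20587 CPM in lo-hi to 3236 to 6584 in pDC, and their part was not tested.

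Across more than 1 step, from pre-cDC to pDC 4 genes were higher (Ctsl, Ctsb, Ctsh and Ctsd) and 1 lower (Cst3), against 11.4% and 10.4% of all genes, and the median of the 9 was 0.45 beside 0.05 over all genes. From lo-lo to pDC 5 were higher (Ctsl, Ctsb, Ctsh, Ctss and Ctsc) and 0 lower, against 6.71% and 7.08%. From pre-cDC to lo-hi 2 were higher (Ctsl by 2.87 and Ctsb by 1.32) and Cst3 was lower (by 1.53), against 6.76% and 6.32%. These comparisons share libraries and are not independent. Without pDC replicate 1, the library with the highest level of every cathepsin, 3 genes passed from pre-cDC to pDC (Ctsl, Ctsb and Cst3) and 2 from lo-lo to pDC (Ctsl and Ctsb).

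Whether a gene moved more at one step than at the next was tested as a difference of steps, a contrast added after the data had been seen. Between the second and the first step 0 of the 9 passed by edgeR, with 3 at an unadjusted p under 0.05 and 0.647% of all genes called. The largest was Cst3, whose second step was higher than its first by 0.90 (SE 0.29, adjusted p = 0.128, edgeR). Between the third and the second step 0 of 9 and 0% of all genes passed, with 1 of the 9 at an unadjusted p under 0.05, Ctsl at -0.92 (SE 0.35, adjusted p = 0.83, edgeR). These tests showed neither unequal nor equal differences between neighbouring populations.

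The RNA of each protease relative to that of the inhibitor was read within each library as a ratio of raw counts of the same 2 genes, which needs no scaling between libraries. Such a ratio measures neither protein nor protease activity. Ctsl counts per 100 Cst3 counts were 1.82, 3.61 and 1.38 in pre-cDC, 12.8, 12.2 and 8.92 in lo-lo, 45.3, 47.1 and 40.3 in lo-hi and 85.3, 60.3 and 64.5 in pDC. No 2 populations overlapped, and the mean went from 2.27 ± 1.18 to 70.0 ± 13.4 (SD, n = 3). Ctsb counts per 100 Cst3 counts went from 28.0 ± 10.4 in pre-cDC through 101 ± 12.9 in lo-lo and 192 ± 13.2 in lo-hi to 225 ± 23.5 in pDC, with lo-hi and pDC overlapping. Since Cst3 is the denominator, its own fall enters each ratio: for all 8 proteases, Ctsz and Lgmn included, every lo-lo and every pDC library stood above every pre-cDC library. From lo-lo to lo-hi this held for 7 of the 8 (not Lgmn), and from lo-hi to pDC for 2 (Ctsl and Ctsc). Cst3 itself was lower in every lo-hi than in every lo-lo library. The share of all genes that separate when divided by Cst3 was not computed, so these counts are no result about the proteases. Ctss per 100 Cst3 counts went from 18.1 ± 2.33 in pre-cDC to 66.1 ± 7.02 in pDC, Ctsh from 13.3 ± 0.924 to 62.7 ± 7.51, Ctsz from 14.2 ± 1.09 to 47.0 ± 2.63, Ctsd from 2.40 ± 0.473 to 9.97 ± 1.62, Ctsc from 1.44 ± 0.0743 to 4.53 ± 0.489 and Lgmn from 1.07 ± 0.126 to 2.15 ± 0.246 (SD, n = 3). These ratios were computed after the values of the genes had been seen and were not tested. The make-up of the protease RNA changed too: Ctsl counts per 100 Ctss counts were 12.2 ± 4.69, 33.6 ± 4.89, 82.2 ± 10.9 and 105 ± 11.3 from pre-cDC through lo-lo and lo-hi to pDC, and Ctsl per 100 Ctsb counts 7.84 ± 1.12, 11.1 ± 0.916, 23.2 ± 2.79 and 31.3 ± 5.81 (SD, n = 3 each). A ratio is read here as a change between populations and not as the number of molecules of one gene against another.

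**Figure D3:**
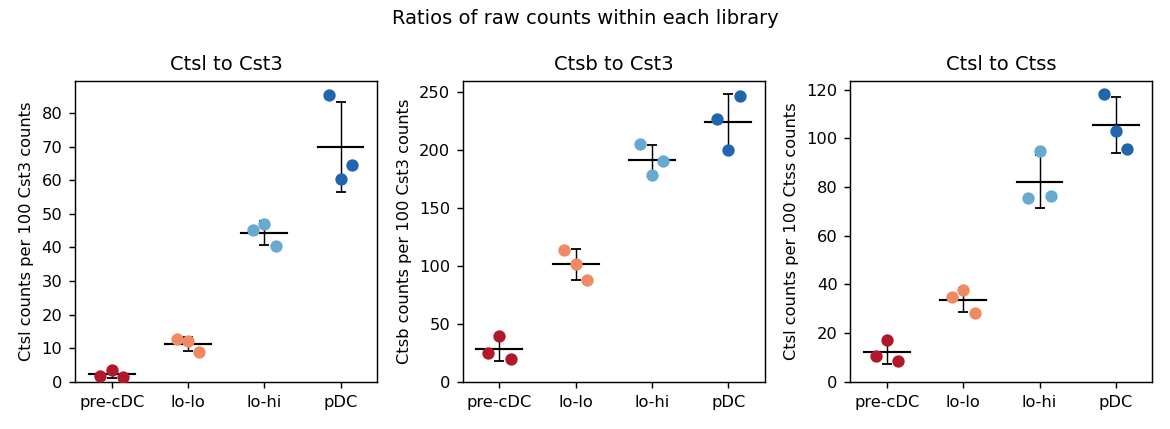
Ratios of raw counts within each library, per 100 counts of the second gene, with the mean as a bar and the SD as a whisker (n = 3). Ctsl per 100 Cst3 counts separates all 4 populations, from at most 3.61 in pre-cDC to at least 60.3 in pDC.

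Over the 12 libraries, Ctsb and Ctsl ran together (Pearson's r = 0.99 of log2 CPM), as did Ctss, Ctsh and Ctsz (r = 0.92 to 0.94). Cst3 ran against Ctsb (r = -0.86) and Ctsl (r = -0.82), and with Lgmn (r = 0.63). These correlations describe 12 libraries in 4 populations, so most of each is the difference between populations. Among all genes tested, the 3 most alike to Ctsl were Dnajc7, Tspan13 and the pDC marker Klra17 (r = 0.993, 0.992 and 0.992), and to Ctsb Tspan13, Eldr and Nek6 (r = 0.994, 0.993 and 0.992). Those most alike to Cst3 were Itgb7, which encodes an integrin subunit, Nfam1 and the GM-CSF receptor gene Csf2ra (r = 0.985, 0.982 and 0.98). For Ctss they were Creb3, Cd68 and Stx7 (r = 0.98, 0.968 and 0.966), for Ctsh Ppfia4, Ppp1r11 and Hint2 (r = 0.985, 0.981 and 0.975), and for Ctsz Itm2b, the proton pump subunit gene Atp6v1f and Sec11c (r = 0.973, 0.972 and 0.969). For Ctsd they were Nudt19, Rnf167 and Cirbp (r = 0.961, 0.959 and 0.956), for Ctsc H2-DMb2, the acid ceramidase gene Asah1 and Nucb1 (r = 0.955, 0.942 and 0.922), and for Lgmn Ndufab1, Slc25a17 and Grwd1 (r = 0.959, 0.946 and 0.934). H2-DMb2 has a near-identical neighbour, H2-DMb1, and its counts are uncertain.

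The other genes of the lysosome did not move as a block between pre-cDC and pDC. The counts of the lists below stand beside 11.4% of all genes called higher and 10.4% called lower in pDC. Of 12 further lysosomal proteases tested, 4 were higher and 0 lower in pDC, with a median log2 fold change of 0.26 beside 0.05 over all genes. Ctso, a cysteine cathepsin, rose from 9.54 ± 2.57 to 71.7 ± 7.10 CPM (SD, n = 3), a log2 fold change of 2.95 (SE 0.23, adjusted p = 2.18e-10, edgeR). The others were Ctsw (1.5), the tripeptidyl peptidase Tpp1 (1.10) and the carboxypeptidase Ctsa (0.59). Of 3 other cystatins tested 1 was lower: Cst7, which encodes cystatin F, an inhibitor of cathepsin C, fell from 36.0 ± 15.2 CPM in pre-cDC through 19.1 ± 5.44 and 8.73 ± 2.23 to 4.11 ± 0.466 in pDC (log2 fold change -3.18, SE 0.32, adjusted p = 4.75e-08, edgeR).

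Of 24 genes of the lysosomal membrane and proton pump, 5 were higher and 1 lower in pDC (median 0.28), where 11.4% of all genes were higher and 10.4% lower. Npc1, which exports cholesterol from lysosomes, was higher by 2.26 on the log2 scale and the pump subunit gene Atp6v1d by 0.99, while Atp6v1b2, another subunit gene of the same pump, fell by 0.89. The fourth gene named by rule, Tcirg1 (0.81), is a membrane subunit of the pump. Of 27 other hydrolases and cofactors 6 were higher and 5 lower (median 0.17), among them Gaa (1.67), which breaks down glycogen, and Arsb (-2.02), a sulfatase. Of 6 sorting genes 2 were higher, the receptor gene Sort1 (2.13) and Gnptab (0.93), which makes the mannose phosphate tag. Of the 4 genes of the TFEB family, 0 were called by edgeR in any comparison, with at most 1 of 4 at an unadjusted p under 0.05.

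Among the partners of these proteases, 2 of 4 class II processing genes passed from pre-cDC to pDC, in opposite directions (11.4% of all genes were higher and 10.4% lower). Cd74, the invariant chain itself, had 832 ± 197 CPM in pre-cDC, 483 ± 103 in lo-lo, 2054 ± 707 in lo-hi and 4414 ± 1648 in pDC (log2 fold change 2.41 from end to end, SE 0.34, adjusted p = 0.000315, edgeR). Ifi30, a thiol reductase of the lysosome, fell from 275 ± 50.9 through 159 ± 13.5 and 117 ± 10.5 to 94.8 ± 6.51 CPM (-1.54, SE 0.16, adjusted p = 2.42e-08, edgeR). Of 4 endosomal Toll-like receptor genes 2 were higher, Tlr7 (3.28, SE 0.20, adjusted p = 8.44e-12, edgeR) and its chaperone Unc93b1 (0.96, SE 0.15, adjusted p = 1.41e-05, edgeR).

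**Figure D4:**
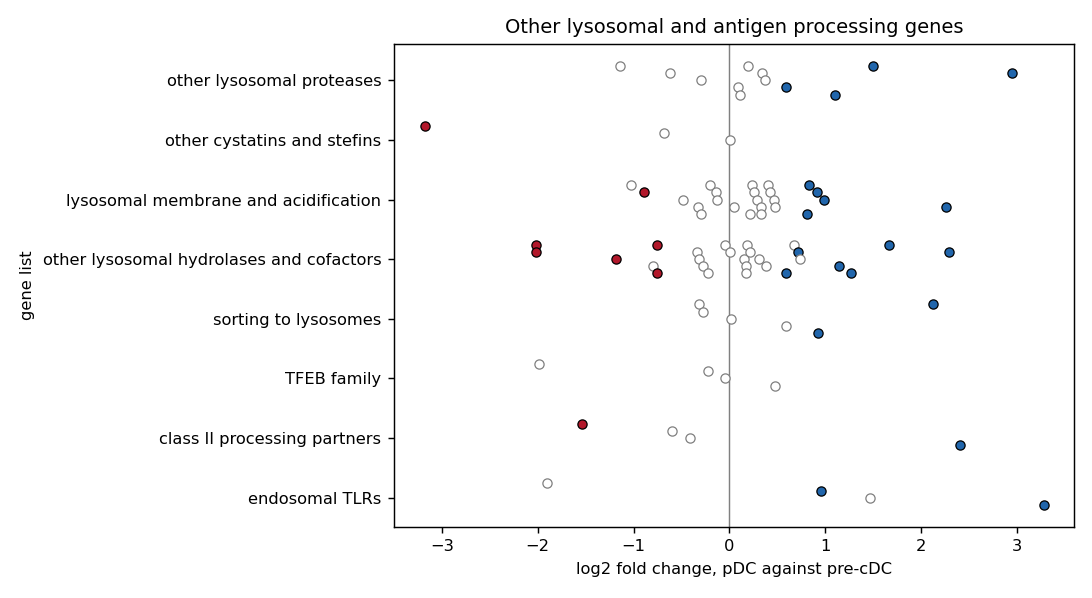
Log2 fold change of pDC over pre-cDC for each tested gene of the 8 other lists; blue points passed as higher, red as lower, and open points did not pass (vertical offsets within a list only separate points). Calls in both directions stand in the lists of hydrolases, membrane and acidification, and class II partners. Over all 8 lists the calls ran from Tlr7 (endosomal Toll-like receptors) at 3.28 down to Cst7 (other cystatins) at -3.18.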

How the data were processed

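RNA of 4 sorted populations was measured in 12 libraries. Per the study's methods, the authors ran zUMIs, with STAR as the aligner to GRCm38 and Ensembl gene models, and deposited raw counts per gene and well. Whether these counts are reads or molecular identifiers, which would remove PCR duplicates, is not given in the sources used here. Wells were placed in populations by the rank match described in the report, and the deposited labels were run as an alternative. The genes and lists were chosen with earlier results of these data known.

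Totals ran from 1801463 to 5995971 counts, so that the floor of 3 counts came to 0.511 to 1.65 CPM, which covers counting error only. Genes were kept where their mean count over the libraries reached 1 (15293 kept, 6461 left out). With edgeR 4.0.16 in R 4.3.3, libraries were scaled by TMM and fitted together by population, and contrasts were tested by the robust quasi-likelihood test, two-sided, with Benjamini-Hochberg adjustment at 0.01. Since the replicates may share pooled mice, p-values measure the spread between these libraries. The edgeR and DESeq2 procedures were also run on simulated counts, as a check of the procedures and not of the results above.

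All 9 genes were named, with the 3 genes most alike to each (Pearson's r of log2 CPM with a prior count of 2). Of each other list, the called genes with the 2 largest and 2 smallest log2 fold changes between pDC and pre-cDC were named, or all where at most 5 were called. Some genes that this rule names are not reported here. The alternatives were DESeq2 1.42.0, its size factors, total-count scaling, other filters, thinning, a block for the replicate number, fits of 6 libraries, a cutoff of 0.05 and leaving out each library. The 4 agreeing wells and the differences of steps were added after seeing the data. Same-numbered libraries deviated together only weakly (mean r = 0.12 over 18 pairs, -0.15 to 0.31). The mean of -0.06 over the 36 others is no separate yardstick, since the deviations within a population cancel out. The sources do not say that a number marks a mouse, so the main fit has no block. The calls that the block changed are given with the results. Gene positions are from GENCODE vM21 and promoters from RefSeq, both on GRCm38.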

Additional observations from a re-analysis of the deposited data

How the results depend on the processing

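With the deposited labels, 0 of all 15293 genes, and so 0 of the 9, passed in any comparison, and 22 values turned direction: by log2 fold change, for lo-hi over pre-cDC Cst3 0.15, Ctsd -0.02 and Lgmn 0.06; for lo-hi over lo-lo Ctsb -0.05, Ctsl -0.08, Ctss 0.00 and Lgmn 0.10; for lo-lo over pre-cDC Ctsc 0.20; for pDC over lo-hi Ctsc -0.44, Ctsl -0.17 and Ctss -0.17; for pDC over lo-lo Ctsc -0.37, Ctsd -0.09, Ctsh -0.17, Ctsl -0.25, Ctss -0.17 and Ctsz -0.04; for pDC over pre-cDC Ctsc -0.17, Ctsh -0.04 and Ctsz -0.05; and for the second minus the first step Ctsc -0.14 and Ctss -0.18. This alternative differs from the main grouping by construction, since 8 libraries change population. Without pDC replicate 1, Ctsc from pre-cDC to pDC turned to -0.03, within a range of -0.03 to 0.34 over the 12 fits that left out 1 library.

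DESeq2's test, its size factors and a filter at a mean count of 10 kept the direction and the call of all 39 member values. The 9 counts stayed equal or close to those of the main fit. Scaling by total count lost Ctsb in lo-hi over lo-lo (0.54), leaving 1 gene called, and Ctsc in pDC over lo-lo (0.64), which thinning to the smallest total also lost (0.75). Fits of only the 6 libraries compared lost Ctsd in pDC over pre-cDC (0.61) and Ctsb in lo-lo over pre-cDC (0.67) and gained Ctsh in lo-hi over lo-lo (0.51). Without a filter, and with the replicate block, 1 gene (Ctsl, at 0.77 and 0.74) passed from lo-hi to pDC, where the main count was 0. The block also let Ctsc and Ctsd pass between the 4 populations (7 of 9 against 5) and changed no other call of the 9. The cause was not tested.

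Leaving out 1 library at a time, the number of the 9 genes called ranged from 4 to 7 between the 4 populations, 1 to 3 for lo-lo over pre-cDC, 1 to 2 for lo-hi over lo-lo, 0 to 1 for pDC over lo-hi, 3 to 6 for pDC over pre-cDC, 2 to 5 for pDC over lo-lo and 3 to 4 for lo-hi over pre-cDC. With 3 libraries per population, changes as small as those of Ctsz and Lgmn in the main fit did not pass.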
